A study of Homo sapiens with 2 samples.

Results

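The 10 genes described here encode transcription factors that hold cells in, or release them from, the epithelial state. They were chosen by name: the repressors ZEB1, ZEB2, SNAI1, SNAI2 and TWIST1, and the epithelial factors GRHL1, GRHL2, OVOL1, OVOL2 and KLF5. Each of the 10 symbols was found among the 20985 genes of the deposited table. Polyadenylated RNA was sequenced from parental HCC827 cells, an established EGFR-mutant lung adenocarcinoma line, and from HCC827 ZDR3, a derivative resistant to the EGFR kinase inhibitor gefitinib. Selection started with 1 month in 10 nM gefitinib, the dose was then increased 3-fold each month until cells grew in 1 µM, and 3 colonies were taken. The labels do not say whether ZDR3 is 1 of those colonies grown as a clone, or whether the drug was present at harvest. Each group held 1 library, so there is no replicate check and no p-value, and the differences below hold for this pair of libraries.

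Epithelial–mesenchymal transition is the loss of cell–cell junctions and apical–basal polarity with a gain of motile, mesenchymal traits. ZEB, SNAI and TWIST proteins bind E-box sequences, and ZEB and SNAI proteins recruit corepressors that silence CDH1 (E-cadherin) and other junction genes. The grainyhead proteins GRHL1 and GRHL2 and the zinc finger proteins OVOL1 and OVOL2 act in the opposite direction: GRHL2 activates junction genes, and GRHL2 and OVOL2 repress ZEB1. ZEB1 in turn represses GRHL2 and the genes of the miR-200 family, whose microRNAs act on ZEB1 and ZEB2 messages. KLF5 is a Krüppel-like factor of proliferating epithelia. In EGFR-mutant lung cancer, a mesenchymal state is a known companion of resistance to EGFR inhibitors.

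The libraries held 257192607 and 243549870 gene reads. A level is a normalised read count that is not divided by gene length, and 1 unit stands for 143 reads in parental cells and 138 in resistant cells. Log2 ratios compare resistant with parental cells after 1 unit is added to each level, and a gene counted as expressed if either library gave it a level of 1 or more. Fold values without the added unit carry exact 95% intervals, which cover counting error only, and molecules were not tagged before amplification, so reads are not independent of each other. Epithelial markers were present in both libraries, with 6 of 6 expressed and a summed level of 14105 in parental cells and 5609 in resistant cells. Of 5 lung markers 3 were expressed, all lower, NKX2-1 among them at 95.0 and 9.33, and the surfactant gene SFTPC had 0 reads in both. Markers of other cell types were scarce apart from CD68. Of 8 fibroblast markers 1 was expressed, their summed level was 9.54 and 1.95, and COL3A1 and THY1 had 0 reads in both libraries. Of 8 leukocyte markers 2 were expressed, the lysosomal gene CD68 and CD14, and CD3E and MS4A1 had 0 reads in both. Their summed level was 157 in parental cells and 321 in resistant cells, of which CD68 gave 155 and 320. None of the 5 endothelial markers found was expressed, and their summed level was 0.553 and 0.124. In bulk RNA, fewer cells of a type and less RNA per cell cannot be told apart.

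The epithelial factors were lower in the resistant library, all 5 of 5, while 3 of the 4 expressed repressors were higher. These calls use a difference of at least 2-fold on the scale with 1 unit added. Over all 13777 expressed genes, 9.68% were lower and 10.6% were higher by that rule, and the median log2 ratio was -0.03. At 4-fold the count was 4 lower epithelial factors and 2 higher repressors, against 3.15% and 3.5% of expressed genes, and 6 of 9 either way against 6.65%. TWIST1 did not reach the minimum level in either library, and SNAI1 lay within 2-fold. ZEB2 and SNAI2 reached that level in the resistant library only, and GRHL2, OVOL1 and OVOL2 in the parental library only. A gene that is under the minimum level in 1 library can be called in 1 direction only, so the counts rest in part on that rule. With no replicates, these counts describe the 2 libraries.

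**Figure D1:**
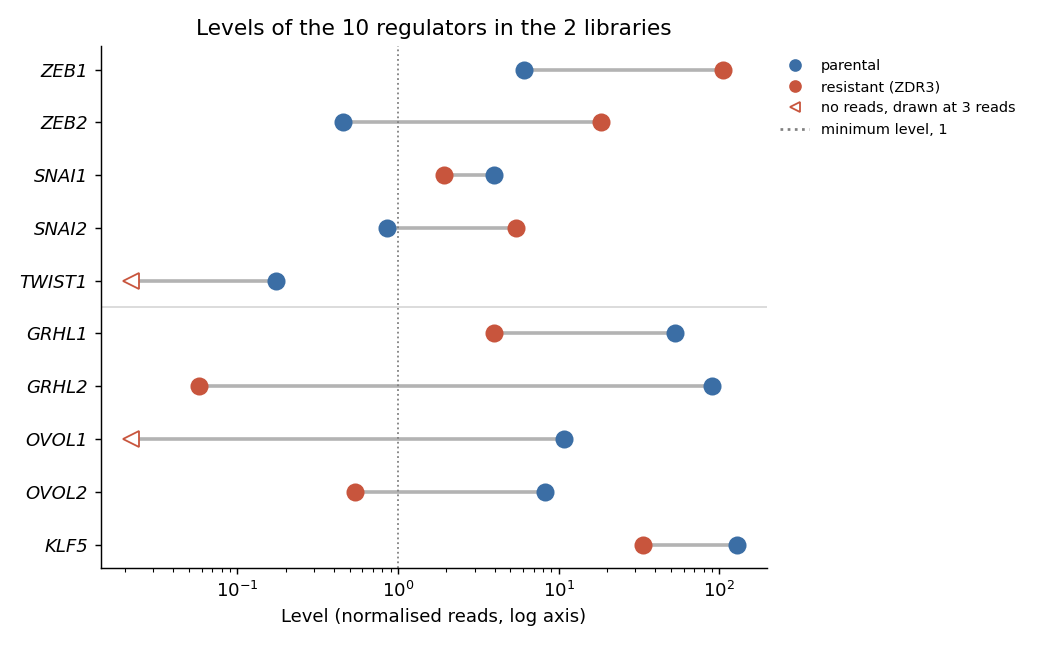
Levels of the 10 regulators in normalised reads on a log axis, with parental values in blue and resistant values in red, 1 library each; open triangles mark 0 reads and are drawn at the level of 3 reads, and the dotted line is the minimum level of 1. The red points of ZEB1, ZEB2 and SNAI2 lie to the right of the blue ones, and those of the other 7 genes lie to the left.

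ZEB1 (ENSG00000148516), a zinc finger and homeodomain repressor of CDH1 on chromosome 10, had 872 reads in parental cells and 14577 in resistant cells. Its level was 6.10 in parental cells and 106 in resistant cells, 17.4-fold higher with a counting interval of 16.2 to 18.6. Only 82 of the 13777 expressed genes had a higher log2 ratio than its 3.91. The parental level of ZEB1 lay above that of 20.2% of expressed genes and the resistant level above that of 77.5%, on levels that are not corrected for length. ZEB1 thus went from the lower to the upper part of the range of expressed genes.

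ZEB2 (ENSG00000169554), the paralog of ZEB1 on chromosome 2, was below the minimum level in the parental library. It had 65 reads there and 2516 in the resistant library, at levels of 0.455 and 18.3. The difference was 40.2-fold, with a counting interval of 31.4 to 52.2, and the log2 ratio with 1 unit added was 3.73. ZEB2 therefore had a larger fold than ZEB1 but a smaller log2 ratio, because the added unit weighs more on its low parental level. A processed pseudogene of ZEB2 exists in GENCODE, and how the authors' counting treated reads that fit both is not given in the sources used here.

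Both ZEB genes have an antisense neighbour that overlaps their 5′ end, and the strand setting of the counting is not given. ZEB1-AS1 shares 1953 bases of its span with ZEB1 in GENCODE. It had 416 reads in parental cells and 332 in resistant cells, at levels of 2.91 and 2.41, so it did not follow ZEB1 upwards. The fold of ZEB1-AS1 was 0.829, with a counting interval of 0.715 to 0.959. ZEB2-AS1 had 0 reads in parental cells and 9 in resistant cells, and 3500 bases of the spans of ZEB2 and ZEB2-AS1 overlap. Reads in these overlaps cannot be assigned to a strand here, and in parental cells the 416 reads of ZEB1-AS1 stood beside 872 of ZEB1. In resistant cells both antisense totals were small beside the counts of ZEB1 and ZEB2.

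The ZEB messages share a feature that bears on their known control, namely target sites of the epithelial miR-200 family. The libraries were made from polyadenylated RNA, and mature microRNAs were not measured in them. The mature sequences, from RefSeq on GRCh38.p14, are shown 5′ to 3′ with the seed, bases 2 to 8, in capitals. The family has a pair of closely related seeds, and miR-205 is a further epithelial microRNA reported to act on ZEB messages.
hsa-miR-200c-3p: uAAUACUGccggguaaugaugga
hsa-miR-200a-3p: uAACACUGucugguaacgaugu
hsa-miR-205-5p: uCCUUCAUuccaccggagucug

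The 3′ UTR of ZEB1, of 2549 bases in the GENCODE transcript with the longest coding sequence, held 6 matches to the miR-200c seed (CAGTATT) and 3 to the miR-200a seed (CAGTGTT). The 3′ UTR of ZEB2, of 5370 bases, held 5 and 4. Among the 13089 expressed genes with a 3′ UTR, of median length 978 bases, 16.4% held at least 1 match for miR-200c. A count of 6 or more was found in 2 of those genes and a count of 5 or more in 5. Of the other 8 regulators SNAI2 alone held a match for miR-200c, with 1. For the miR-200a seed GRHL2 and KLF5 held 1 each, and for miR-205 (ATGAAGG) ZEB1 alone held a match, with 1. A longer UTR holds more matches by length alone, and a match is a run of letters, not a shown site of action.

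The 6 ZEB1 matches for miR-200c are printed as the example with the most matches among the 10 regulators, next to 5 in ZEB2. Each line gives 30 bases of the transcript, 5′ to 3′, with the 7 bases that pair with the seed in capitals, and the name gives the position of the first paired base in the 3′ UTR. Of the 6, those at 369, 1243 and 1313 are followed by an A, the base that favours microRNA targeting.
ZEB1 site at 369: atctggcattgttttatcttatCAGTATTa
ZEB1 site at 463: taaacatatgctaaatccgcttCAGTATTt
ZEB1 site at 892: gtgtgctgtaagtgccatttctCAGTATTt
ZEB1 site at 1243: acattagctgatttttacctatCAGTATTa
ZEB1 site at 1313: tactgtatgtcttcaaacctggCAGTATTa
ZEB1 site at 1964: ctgtcattcttttcatcattatCAGTATTt

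SNAI2 (ENSG00000019549), the gene of Slug, was the other repressor with a higher level. It had 122 reads in parental cells and 744 in resistant cells, at levels of 0.854 and 5.41, 6.33-fold higher with a counting interval of 5.22 to 7.73. Its log2 ratio of 1.79 became 0.83 with 5 units added, which ends the call at 2-fold. SNAI1 (ENSG00000124216), the gene of Snail, went the other way, with 565 and 266 reads. Its level was 3.95 in parental cells and 1.93 in resistant cells, 2.05-fold lower with a counting interval of 1.77 to 2.38, and its log2 ratio with 1 unit added was -0.76. SNAI1 has a processed pseudogene, so its reads may be shared in part.

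TWIST1 (ENSG00000122691), a bHLH factor that binds DNA as a dimer, was the scarcest regulator in the resistant library together with OVOL1. It had 25 reads in the parental library, a level of 0.175, and 0 in the resistant library. Against a floor of 3 reads it was 8.03-fold lower, and its counting interval began at 6.06-fold lower. Its relative TWIST2 was expressed, at 4.59 in parental cells and 4.04 in resistant cells, a log2 ratio of -0.15. SNAI3 and OVOL3, the remaining family relatives of the SNAI and OVOL genes examined, were below the minimum level in both libraries.

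GRHL2 (ENSG00000083307), the grainyhead activator of epithelial junction genes, had 12764 reads in parental cells and 8 in resistant cells. Its level went from 89.3 to 0.0581, and it was 1537-fold lower with a counting interval of 780 to 3560. Of the 13777 expressed genes 21 had a lower log2 ratio than its -6.42. GRHL1 (ENSG00000134317), its paralog, had 7521 and 542 reads, at levels of 52.6 and 3.94. It was 13.4-fold lower, with a counting interval of 12.2 to 14.6 and a log2 ratio of -3.44. GRHL1 therefore kept a level above the minimum in the resistant library and GRHL2 did not.

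The other genes of the grainyhead family were not called at 2-fold with 1 unit added. The widely expressed TFCP2 was at 103 in parental cells and 73.5 in resistant cells (log2 ratio -0.48), UBP1 at 88.3 and 68.4 (-0.36), and TFCP2L1 at 0.427 and 1.20 (0.62). GRHL3, the third grainyhead-like paralog, was below the minimum level in both libraries, with 105 and 33 reads. Without the added unit GRHL3 was 3.06-fold lower (counting interval 2.06 to 4.68) and TFCP2L1 2.81-fold higher (2.08 to 3.83), both at low levels. With 0.1 in place of 1 unit added, TFCP2L1 passed 2-fold as higher. By the call at 2-fold, GRHL1 and GRHL2 were thus the lower genes among the 5 expressed in this family, against 9.68% of all expressed genes. TFCP2 and UBP1 were lower by less than that.

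OVOL1 (ENSG00000172818) had 1542 reads in parental cells and 0 in resistant cells. Its parental level was 10.8, and against a floor of 3 reads it was 495-fold lower, while its log2 ratio with 1 unit added was -3.56. The counting interval of OVOL1 began at 402-fold lower. OVOL2 (ENSG00000125850) had 1171 and 74 reads, at levels of 8.20 and 0.538. It was 15.2-fold lower, with a counting interval of 12.0 to 19.5 and a log2 ratio of -2.58. OVOL proteins repress mesenchymal genes, ZEB1 among them, and neither gene reached the minimum level in the resistant library.

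KLF5 (ENSG00000102554) was the epithelial factor with the smallest difference. It had 18377 reads in parental cells and 4595 in resistant cells, at levels of 129 and 33.4, 3.85-fold lower with a counting interval of 3.73 to 3.98. Its log2 ratio was -1.91, and 468 expressed genes had a lower one. Of the other 16 KLF genes 10 were expressed, of which 3 were at least 2-fold higher and 1 lower, against 10.6% higher and 9.68% lower among all expressed genes, with a median log2 ratio of 0.22. KLF6 was at 51.4 in parental cells and 221 in resistant cells (2.08) and KLF13 at 8.81 and 29.1 (1.62). KLF8, itself described as an EMT factor, was at 9.30 and 0.516 (-2.76).

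**Figure D2:**
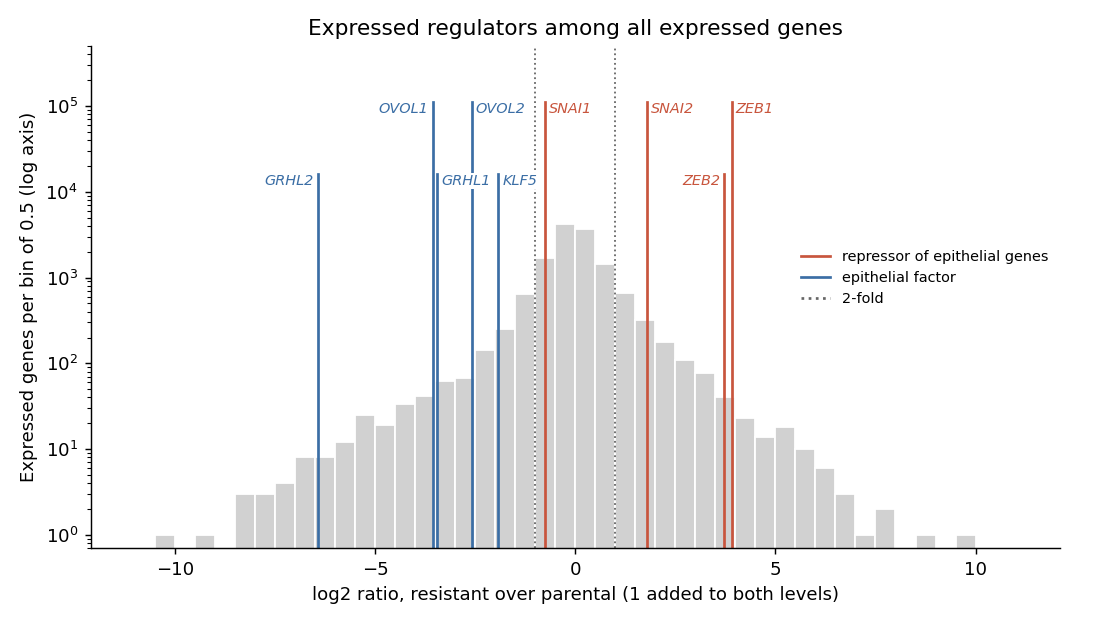
Histogram of log2 ratios, resistant over parental with 1 unit added, for the 13777 expressed genes in bins of 0.5, with a log count axis; vertical lines mark the 4 expressed repressors (red) and the 5 epithelial factors (blue), and dotted lines mark 2-fold. The epithelial factors lie between -6.42 and -1.91, and ZEB1, ZEB2 and SNAI2 between 1.79 and 3.91.

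Levels of different genes were compared only after division by the length of their exons in GENCODE, as normalised reads per kb. That length joins the exons of every transcript of a gene in the basic GENCODE set. It can exceed that of any single message, so close ranks depend on which transcripts are annotated. In the parental library the order per kb was KLF5 (34.3), GRHL2 (16.9), GRHL1 (14.5), OVOL2 (5.27), OVOL1 (3.22), SNAI1 (2.35), ZEB1 (0.948), SNAI2 (0.352), TWIST1 (0.105) and ZEB2 (0.0341). Every epithelial factor there stood above every repressor. In the resistant library the order per kb was ZEB1 (16.5), KLF5 (8.91), SNAI2 (2.23), ZEB2 (1.37), SNAI1 (1.15), GRHL1 (1.09), OVOL2 (0.346) and GRHL2 (0.0110), with OVOL1 and TWIST1 at 0 reads. Each of the 4 expressed repressors there stood above GRHL1, GRHL2, OVOL1 and OVOL2 on this scale, and KLF5 kept the second place. SNAI1 and GRHL1 were close to each other, and since spread between cultures is unknown their order is not settled.

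Within a library such comparisons do not depend on how the libraries were scaled to each other. Per kb, the level of GRHL2 was 17.8 times that of ZEB1 in the parental library, while ZEB1 was 1500 times GRHL2 in the resistant library, a value that rests on 8 reads of GRHL2. KLF5 per kb was 36.2 times ZEB1 in the parental library, and ZEB1 was 1.85 times KLF5 in the resistant library. The summed level per kb of the 5 repressors was 3.78 in parental cells and 21.2 in resistant cells. That of the 5 epithelial factors was 74.2 and 10.4. SNAI1 gave 62.0% of the repressors' sum in the parental library and 5.41% in the resistant library, where ZEB1 gave 77.6%. KLF5 gave 46.2% of the sum of the epithelial factors in parental cells and 86.0% in resistant cells.

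**Figure D3:**
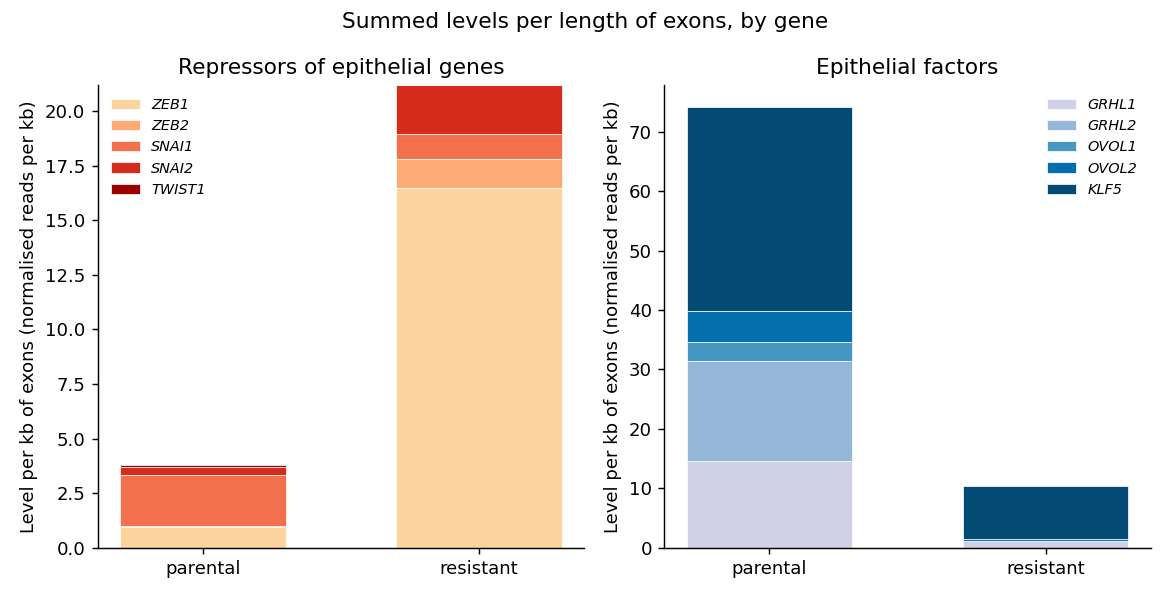
Stacked bars of levels per kb of exons (normalised reads per kb) of the 5 repressors (left) and the 5 epithelial factors (right) in the parental and resistant libraries, 1 library each; the vertical scales of the panels differ. The repressor sum goes from 3.78 to 21.2, mostly ZEB1, and the epithelial factor sum from 74.2 to 10.4, mostly KLF5.

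Genes that GRHL2 is known to activate were lower, 14 of 14, of which 2 are the regulators OVOL1 and OVOL2. The median log2 ratio of this list was -3.34, against -0.03 over all expressed genes and 9.68% of them lower by the 2-fold rule. AP1M2, a clathrin adaptor subunit of polarised epithelia, was at 75.8 in parental cells and 0.254 in resistant cells (-5.94). The membrane protease PRSS8 was at 95.5 and 1.02 (-5.58), and the epithelial splicing regulator ESRP1 at 1305 and 28.9 (-5.45). RAB25, a GTPase of apical recycling, had 5892 and 3 reads (-5.37), and its fold of 1892 lower had a counting interval of 647 to 9176. ST14, a membrane protease, was at 413 and 9.50 (-5.30) and CLDN7, a claudin, at 641 and 20.1 (-4.93). CDH1 itself stayed abundant in the resistant library, at 146 against 1271 (-3.11).

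Genes that ZEB or SNAI proteins are known to repress were less uniform. Of 22 found and expressed, 13 were at least 2-fold lower, 1 was higher and 8 lay within 2-fold, against 10.6% higher and 9.68% lower among all expressed genes. The median log2 ratio was -2.09. The list shares 9 genes with the GRHL2 list, and those 9 were lower, so most of the 13 lower genes are shared. The 1 higher gene and the 8 within 2-fold all lie outside the shared genes. Outside the shared genes, MARVELD3, a tight junction protein, was at 34.6 in parental cells and 0.778 in resistant cells (-4.32), and the flippase subunit TMEM30B at 95.4 and 3.91 (-4.30). The single higher gene was CLDN1, a tight junction claudin, at 20.6 and 108 (2.33). ESRP2, the paralog of ESRP1, was at 60.4 and 51.7 (-0.22), and the polarity gene LLGL2 at 161 and 160 (-0.01). Both target lists were drawn up with earlier results of these data known, so their counts are descriptions.

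**Figure D4:**
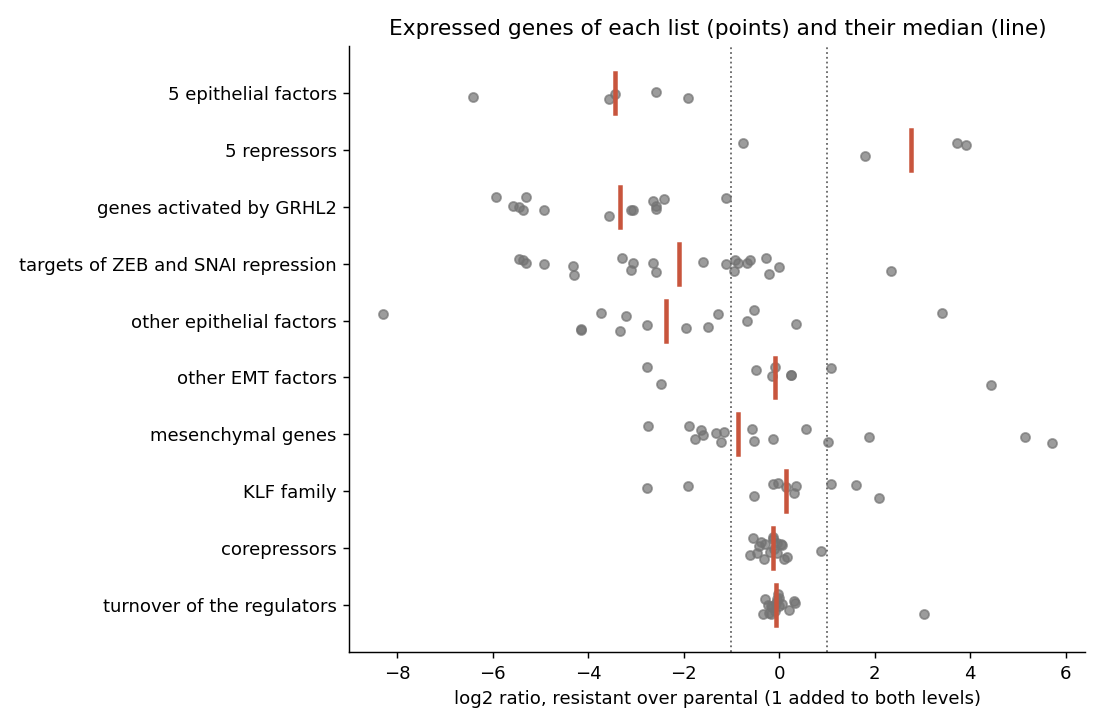
Log2 ratios, resistant over parental with 1 unit added, of the expressed genes of each list (points, with vertical jitter) and their median (red line); dotted lines mark 2-fold. The medians of the GRHL2-activated genes (-3.34) and of the ZEB and SNAI targets (-2.09) lie left of -1, and those of the corepressors (-0.13) and turnover genes (-0.06) near 0.

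RefSeq promoter windows, 250 bases before to 50 after a gene's start on GRCh38.p14, were found for 4 of the 10 regulators (ZEB1, ZEB2, GRHL1 and KLF5) and for 13 of the 22 expressed targets of ZEB and SNAI repression. The E-box CACCTG, searched on both strands, occurred in 8 of those 13 windows and in 20.6% of all 35116 windows. The targets came to be known in part through such E-boxes. It was present in 4 of the 7 windows of targets called lower and in 4 of the 6 windows of the others. Among the regulators ZEB1 alone held it, once. The GRHL full site AACCGGTT, found in 0.134% of all windows, and its looser form AACNNGTT, which includes it and was found in 3.52%, were absent from the 6 windows of GRHL2-activated genes. The TWIST E-box CATATG (3.04% of all windows) was absent from the windows of the regulators and of both target lists. The OVOL motif CCGTTA (3.07% of all windows) occurred in ZEB2 and in CRB3. The KLF motifs GGGCGG and CACCC are common, at 45.0% and 59.9% of all windows, and occurred in 11 and 9 of the 13 target windows. The absence of these letters from such a short window says nothing of the factors.

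The 4 windows below are examples that hold at least 2 copies of CACCTG, which stands in capitals on either strand. The windows of INADL, with 3 copies and a log2 ratio of -1.59, and MAP7, with 2 copies and -0.67, also do and are not printed. RAB25, TMEM30B and CRB3 are on the list of ZEB and SNAI targets, while AP1M2 is on the GRHL2 list only. RAB25 (chr1:156060910-156061209, plus strand) and AP1M2 (chr19:10587263-10587562, minus strand) had 3 and 35 reads in resistant cells, TMEM30B (chr14:61281289-61281588, minus strand) was 24.4-fold lower, and CRB3, a polarity gene (chr19:6464021-6464320, plus strand), was 1.99-fold lower. The sequences run 5′ to 3′ on the strand of the gene.
RAB25: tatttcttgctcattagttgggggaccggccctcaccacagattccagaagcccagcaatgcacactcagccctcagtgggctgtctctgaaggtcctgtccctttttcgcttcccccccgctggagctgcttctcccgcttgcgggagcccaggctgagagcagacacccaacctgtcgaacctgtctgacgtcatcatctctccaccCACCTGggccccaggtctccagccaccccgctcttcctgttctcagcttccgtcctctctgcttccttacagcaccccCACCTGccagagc
AP1M2: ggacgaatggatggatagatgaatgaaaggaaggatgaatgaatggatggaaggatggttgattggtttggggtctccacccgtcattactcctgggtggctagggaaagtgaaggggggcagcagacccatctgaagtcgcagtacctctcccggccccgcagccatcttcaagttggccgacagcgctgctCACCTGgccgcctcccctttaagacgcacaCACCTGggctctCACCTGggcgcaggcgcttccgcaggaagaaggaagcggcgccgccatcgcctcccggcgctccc
TMEM30B: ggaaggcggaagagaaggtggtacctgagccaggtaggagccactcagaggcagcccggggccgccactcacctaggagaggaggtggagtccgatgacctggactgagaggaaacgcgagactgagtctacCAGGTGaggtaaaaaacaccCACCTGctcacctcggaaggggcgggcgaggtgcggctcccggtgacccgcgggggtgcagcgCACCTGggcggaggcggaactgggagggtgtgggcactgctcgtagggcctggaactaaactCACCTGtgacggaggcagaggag
CRB3: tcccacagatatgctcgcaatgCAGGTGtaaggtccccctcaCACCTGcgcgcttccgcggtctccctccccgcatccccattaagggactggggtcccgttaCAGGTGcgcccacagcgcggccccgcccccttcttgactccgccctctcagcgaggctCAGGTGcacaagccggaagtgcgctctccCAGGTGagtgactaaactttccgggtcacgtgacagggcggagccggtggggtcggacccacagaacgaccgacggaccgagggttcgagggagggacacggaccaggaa

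RAB25 and AP1M2 thus held 2 and 3 copies, with levels of 0.0218 and 0.254 in the resistant library, while CRB3 held 5 copies and was at 17.3 in parental cells and 8.67 in resistant cells. In RAB25 the copies began 41 bases before and 38 bases into the transcribed part. In AP1M2 they began 57, 27 and 15 bases before the start.

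Most other transcription factors of epithelia had lower levels. Among 14 expressed, 10 were at least 2-fold lower, against 9.68% of all expressed genes, and the median log2 ratio of the 14 was -2.36. EHF, an ETS factor, was at 375 in parental cells and 0.189 in resistant cells (-8.31). TFAP2A was at 162 and 8.15 (-4.16), and TP63, the basal cell regulator, had 2398 and 0 reads. The 5 epithelial factors were therefore not alone in this direction.

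Of 15 other factors linked to EMT 9 were expressed, of which 2 were at least 2-fold higher and 2 lower, against 10.6% higher and 9.68% lower among all expressed genes. Their median log2 ratio was -0.09, and with 9 genes these counts are not read as a shift of the list. TCF4, the bHLH factor also called E2-2, had 28 reads in parental cells and 3453 in resistant cells, at levels of 0.196 and 25.1 (4.45), a larger log2 ratio than that of ZEB1. FOXC1 was at 5.26 and 12.3 (1.09), and FOXQ1 at 6.71 and 0.378 (-2.48). FOXC1 lay within 2-fold with 5 units added or per kb of exons. Among the 7 bHLH partners and ID inhibitors of TWIST proteins, ID4 was higher, at 4.25 and 22.5 (2.16), ID1 lower, at 84.7 and 34.1 (-1.29), and ID3 at 24.4 and 42.8 (0.79).

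Mesenchymal genes were mixed: of 16 expressed, 4 were at least 2-fold higher and 8 lower, against 10.6% higher and 9.68% lower among all expressed genes. The median log2 ratio was -0.87. VIM (vimentin) was at 23.5 in parental cells and 1289 in resistant cells (5.72), CDH2 (N-cadherin) at 0.672 and 58.4 (5.15) and FBN1 (fibrillin) at 1.74 and 9.18 (1.89). Per kb of exons FBN1 lay within 2-fold (0.52). FN1 (fibronectin), a common marker of EMT, was lower, at 3420 and 506 (-2.75). With 5 units added, 4 rather than 8 genes of the list were lower. Higher ZEB1, ZEB2 and SNAI2 thus stood beside higher VIM and CDH2 but not beside higher levels of most genes of this list.

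The cofactors of the repressors differed little. None of the 18 corepressor genes was called at 2-fold, against 20.3% of all expressed genes called either way, and their log2 ratios ran from -0.62 to 0.88. CTBP2, a corepressor bound by ZEB proteins, was at 307 in parental cells and 222 in resistant cells (-0.47), and the histone methyltransferase gene EHMT2 at 193 and 125 (-0.62). SUV39H1 (-0.56) and WTIP, an Ajuba family LIM protein bound by SNAI proteins (0.88), had the other largest differences, and WTIP passed 2-fold with 0.1 in place of 1 unit added. Of 18 expressed genes for the turnover of these regulators, mainly kinases, ubiquitin ligases and deubiquitinases, 1 was higher and 0 were lower. Among all expressed genes 10.6% were higher and 9.68% lower. That gene was PRKD1, a kinase that phosphorylates Snail, with 13 and 1101 reads (3.04), while FBXL5 (-0.33), FBXL14 (0.33) and BAP1 (0.32) lay within 2-fold.

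Over the 20 closest expressed genes to either side of each regulator on its chromosome, the median log2 ratio ran from -0.44 (around ZEB2) to 0.07 (around GRHL2). With that median subtracted, ZEB1 had a log2 ratio of 3.89, ZEB2 of 4.16, SNAI2 of 2.002, GRHL2 of -6.49, GRHL1 of -3.37, OVOL1 of -3.54, OVOL2 of -2.62 and KLF5 of -1.91. SNAI1 had -0.52 and TWIST1 0.10 on this scale. Both levels of TWIST1 lie far under the added unit, so its value cannot show whether it differed from its neighbours. Without the added unit SNAI1 was 2.05-fold lower, and the counting interval of TWIST1 began at 6.06-fold lower. Of the 40 neighbours of a regulator, 1 to 7 were at least 2-fold higher and 0 to 9 lower, beside 10.6% and 9.68% of all expressed genes. Some single neighbours differed strongly, in either direction. NCALD, the next expressed gene after GRHL2, had a log2 ratio of 3.77, opposite to GRHL2, and ARHGAP12, next to ZEB1, one of -1.33. Others went the same way as the regulator: LMO7, 5 places from KLF5, had -1.86, SCEL, 10 places from KLF5, had -7.37, and KIAA1462, 5 places from ZEB1, had 1.73. Near TWIST1, the mucin-folding gene AGR2 and MACC1, within 5 places, had -8.40 and -5.44.

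**Figure D5:**
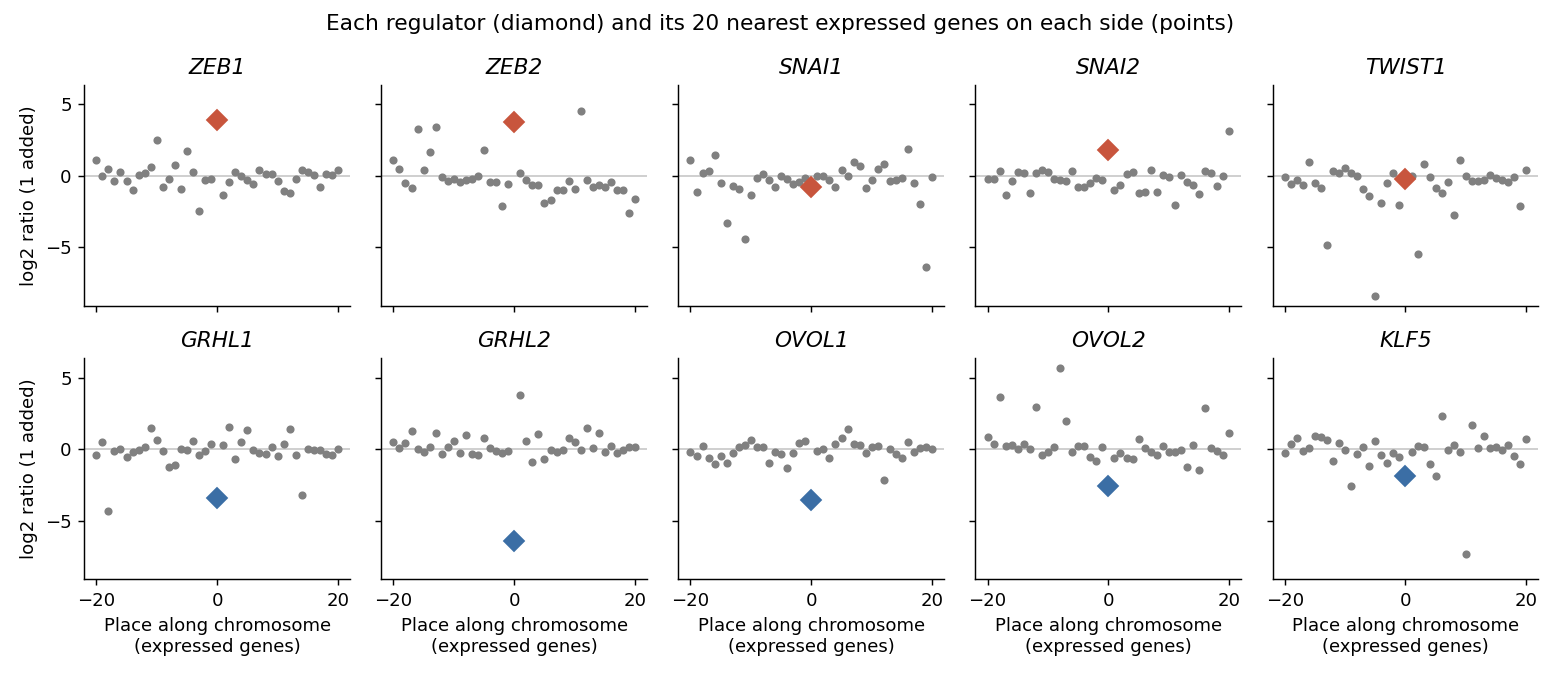
Log2 ratio, resistant over parental with 1 unit added, of each regulator (diamond at place 0) and of the 20 closest expressed genes to either side (grey points), in the order of genes along the chromosome; red diamonds are repressors and blue diamonds epithelial factors. The neighbour medians lie between -0.44 and 0.07, while the diamonds of ZEB1 and ZEB2 lie above 3.7 and that of GRHL2 at -6.42.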

How the data were processed

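Polyadenylated RNA of 1 parental and 1 resistant culture was sequenced on an Illumina instrument, per the labels' protocols. The submitters' processing notes name TopHat. The sources used here do not give the genome build, counting tool, strand setting or tool version. Per gene and library, the authors deposited 1 log2 value, under a name that says RPKM. The column read as parental ends in Prim, and the other names ZDR3. Raised from the log scale, values came to whole multiples of a step that all genes of a library share (100% within 0.1 read among genes with 1 to 100000 reads). They are thus reads per gene times a factor and not divided by gene length. Genes at the lowest value, 0.9 reads, were taken as 0 reads: 3504 genes in parental cells and 3573 in ZDR3.

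Levels were compared as log2((resistant + 1)/(parental + 1)), at 2-fold, with a minimum level of 1. The ratio of unadjusted levels had an exact 95% Clopper-Pearson interval (SciPy 1.17.1). The fold calls and intervals were tested on simulated counts. Those counts held counting error only, so that test says nothing of spread between cultures. The members, lists and motifs were chosen with earlier results of these data known. Named are all members, the 4 genes with the largest log2 ratio of either sign in each list and the 8 in each target list, except some that are not reported here. CRB3, CLDN1, ESRP2, LLGL2, INADL, MAP7, SCEL, GRHL3 and UBP1, and the search for microRNA seeds, were chosen after values were seen. The table names PATJ as INADL, and OVOL3 was matched by its Ensembl identifier. Gene order and exon lengths came from GENCODE 29, and the authors' annotation may differ; 97.8% of expressed genes had a position. RefSeq windows of SNAI1, SNAI2, TWIST1, GRHL2, OVOL1 and OVOL2 were not used here. Other pseudocounts, minimum levels, scalings, a neighbourhood correction and, added after seeing the data, levels per kb of exons were tried.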

Additional observations from a re-analysis of the deposited data

How the results depend on the processing

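The count of lower regulators was 5 under each of the 8 alternatives that recompute it, and that of higher regulators was 3 under 7 of them and 2 with 5 units added, where SNAI2 lay within 2-fold at 0.83. Among expressed genes as a whole, 5 units added gave 901 higher and 865 lower genes against 1463 and 1333. No gene called among the 58 named changed sign, and 7 of 360 values of called genes fell under 2-fold. Most of these alternatives cannot change the sign of a called gene, so its absence is no check. Only subtracting the neighbours' median could have done so, and that was applied to the regulators alone. Scaling the libraries to their totals shifted log2 ratios by at most 0.025 and centring on the median by 0.03. Over the alternatives GRHL2 ran from -9.14 to -4.14, GRHL1 from -3.71 to -2.69, OVOL1 from -6.77 to -1.66, OVOL2 from -3.70 to -1.25, KLF5 from -1.94 to -1.80, ZEB1 from 3.16 to 4.10 and ZEB2 from 1.20 to 5.05. The low value of ZEB2 came from levels per kb of exons, an alternative chosen after seeing the data, since its long exons place it near the added unit. SNAI1 ran from -0.996 to -0.37 and TWIST1 from -1.46 to 0.10, the last with its neighbours' median subtracted. Per kb of exons, 2 rather than 4 mesenchymal genes were higher. No paired analysis was possible because each group held 1 library, and for the same reason no library could be left out. TWIST1, with 25 and 0 reads, and the resistant values of GRHL2 and RAB25, with 8 and 3 reads, are limited by counting.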
